A study of Mus musculus with 5 samples.

Results

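Intercalated cells of the mouse kidney were picked out of the single-cell data as barcodes with at least 2 unique molecular identifiers (UMIs) of Atp6v1g3, a subunit gene of the proton pump of these cells. A barcode also had to hold at least 1000 UMIs, at least 200 genes and at most 25% of UMIs on mitochondrial genes, at most 1 UMI each of Aqp2 (principal cells), Slc12a1 (thick ascending limb) and Lrp2 (proximal tubule), and 0 of Ptprc (leukocytes). Of 53809 barcodes past the limits on UMIs, genes and mitochondrial share, 107 met the rule. The members were thus chosen by their own counts of these genes, which are given as a description only. The study took kidneys of male C57BL/6J mice of 6 to 8 weeks after unilateral ischemia-reperfusion, in which the left renal pedicle was clamped for 35 minutes, and after sham surgery. There was 1 sample each for AKI (acute kidney injury) at day 1, day 3, day 14 and day 28 and 1 sham sample, and the protocol gives 3 mice per kidney sample. The whole kidney was dissociated with no sort, and red cells were lysed. The barcodes carry a library number from 1 to 5 that no label ties to a condition, so the libraries are shown side by side by number, all cells form 1 pooled sample, and no test was made.

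Intercalated cells are scattered among the principal cells of the connecting tubule and collecting duct and control acid-base balance. Type A cells secrete protons through an apical vacuolar-type ATPase (V-ATPase) and return bicarbonate to the blood through the anion exchanger Slc4a1 (AE1). Type B cells secrete bicarbonate through Slc26a4 (pendrin), an apical chloride-bicarbonate exchanger. The forkhead transcription factor Foxi1 is required for both types and is known to act on promoters of proton pump subunits. RefSeq promoter windows, from 250 bases before to 50 bases after each gene start, were looked up in build GRCm38.p6 for 32 genes, which were Atp6v1g3, Slc4a1, Slc26a4, the 11 proton pump genes that were at least 2-fold higher than in principal cells and the 20 genes that lead the comparison with principal cells. For 25 of them there was a window. The forkhead motif TGTTTAC, on either strand, was found in 2 of the 25 (Atp6v1b1 and Guca2a) and in 3.65% of all 32851 windows. A match is only a run of letters and not a binding site. Shown here are Atp6v1b1, which encodes the kidney isoform of the B subunit and holds the motif in capitals at bases 153 to 159 (chr6:83742767-83743066, plus strand), Atp6v1g3, which defined the cells (chr1:138273488-138273787, plus strand), and Slc26a4, which divided them (chr12:31559935-31560234, minus strand). The latter pair have no capitals because neither window holds the motif.
Atp6v1b1: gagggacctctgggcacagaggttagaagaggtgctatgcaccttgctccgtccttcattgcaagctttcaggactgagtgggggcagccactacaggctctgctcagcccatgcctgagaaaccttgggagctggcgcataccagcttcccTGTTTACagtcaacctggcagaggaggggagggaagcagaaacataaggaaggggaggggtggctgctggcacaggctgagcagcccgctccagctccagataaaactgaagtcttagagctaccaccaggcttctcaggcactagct
Atp6v1g3: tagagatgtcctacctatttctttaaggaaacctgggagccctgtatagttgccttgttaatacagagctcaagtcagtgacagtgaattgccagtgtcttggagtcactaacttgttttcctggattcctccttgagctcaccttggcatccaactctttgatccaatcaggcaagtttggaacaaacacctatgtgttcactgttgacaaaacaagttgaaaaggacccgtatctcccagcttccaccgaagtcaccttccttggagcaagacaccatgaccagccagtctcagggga
Slc26a4: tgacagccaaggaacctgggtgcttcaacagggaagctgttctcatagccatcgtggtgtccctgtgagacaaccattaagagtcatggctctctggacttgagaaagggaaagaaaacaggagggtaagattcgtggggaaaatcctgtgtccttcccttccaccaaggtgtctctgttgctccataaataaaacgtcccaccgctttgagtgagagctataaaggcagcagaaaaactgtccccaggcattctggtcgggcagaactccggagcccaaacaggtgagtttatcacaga

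The label was checked with genes the rule did not use. Foxi1 had a UMI in 61 of the 107 cells (57.0%, exact 95% interval 47.1 to 66.5%), against 5 of 111 principal cells (4.50%), 0 of 528 thick ascending limb cells (at most 0.696% by the exact interval) and 28 of 32546 proximal tubule cells (0.086%). Those other cells were chosen by the same kind of rule, with at least 2 UMIs of Aqp2, Slc12a1 or Lrp2, and distal convoluted tubule cells by Slc12a3. All of them also had to hold at most 1 UMI of Atp6v1g3, so their Foxi1 shares are of cells already low in Atp6v1g3. Among 35 barcodes with at least 10 Atp6v1g3 UMIs that failed the gates on Aqp2 alone, Foxi1 was seen in 29 (82.9%). Median depth was 5807 UMIs in intercalated, 6758 in principal and 6461 in proximal tubule cells, so depth was close between them. With each cell thinned to 1000 UMIs, Foxi1 was seen in 17.8% of intercalated and 0.901% of principal cells. All intervals here cover counting error only.

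The 107 cells were not uniform along Atp6v1g3, whose UMIs per cell ran from 2 over a median of 24 to 153. In the 67 cells with at least 10 UMIs, Foxi1 was seen in 56 (83.6%), and each of the 67 had a UMI of at least 1 of 7 other genes of these cells (Foxi1, Atp6v1b1, Atp6v1c2, Atp6v0d2, Slc4a1, Slc26a4 and Hepacam2). In the 29 cells with 2 to 3 UMIs, Foxi1 was seen in 2 (6.90%) and any of the 7 genes in 12. Levels are given as CPM, the UMIs of a gene or list scaled to 1000000 UMIs of the class. The low cells held 28451 CPM of proximal tubule markers (4990 in the cells with at least 10) and had a median depth of 1827 against 8055 UMIs. Proximal tubule markers were found in each of the 29, and the median cell was at 19641 CPM. They were also found in each of the 78 cells with at least 4 Atp6v1g3 UMIs, where the median cell was at 4569 CPM. Leukocyte markers were at 5907 CPM in the low cells, but all but 37 of the 475 UMIs lay in 1 cell, without which the level was 489 CPM (58.3 in the cells with at least 10). So the data bear out the label for cells rich in Atp6v1g3, while 17 of the 29 low cells held none of the 7 genes. By the 7 genes the low cells also stood apart from 15623 barcodes that met all else but had 0 Atp6v1g3 UMIs. Of those barcodes, at a median depth of 2206 UMIs, 2.61% had any of the 7 genes, against 41.4% of the 29. By proximal tubule markers the low cells did not stand apart, at 28451 CPM against 34057 in those barcodes. The 11 cells with 4 to 9 UMIs lay between for Foxi1, which was seen in 3. They did not for principal cell markers, at 4424 CPM against 1007 in the low cells and 901 in those with at least 10. In this band 1 cell held 3 Foxi1 UMIs together with 68 of Fxyd4, a principal cell gene. As a level, which does not hang on depth, Foxi1 was at 24.9, 106 and 405 CPM in the 3 bands from low to high, and at 0.30 CPM in the barcodes with 0. The first 2 of these levels rest on few UMIs. The low band had 2 cells with 1 Foxi1 UMI each. In the middle band 3 cells had Foxi1, among them the cell with 3 Foxi1 and 68 Fxyd4 UMIs. At the limit itself, Foxi1 was seen in 1 of 21 cells with 2 UMIs (4.76%) and in 1 of 218 barcodes that met all else but had 1 UMI (0.459%), and any of the 7 genes in 28.6% and 8.72%. These bands were set after the values were seen.

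**Figure D1:**
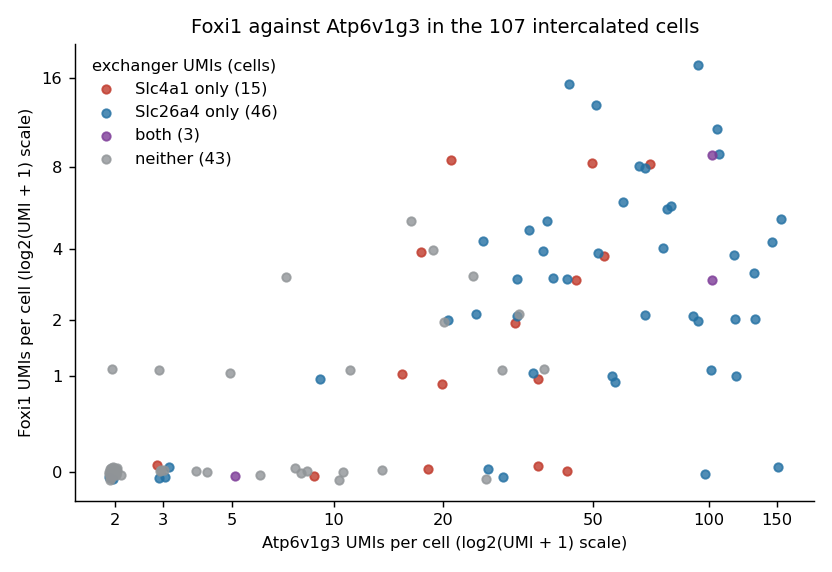
UMIs of Foxi1 against UMIs of Atp6v1g3 in each of the 107 intercalated cells, both on a log2(UMI + 1) scale with small random offsets so that cells do not hide each other; colour marks the exchanger gene seen. Foxi1 is at 0 in nearly all cells with 2 to 3 Atp6v1g3 UMIs and above 0 in 56 of the 67 cells with at least 10.

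The gates do not remove free RNA, which in droplet data gives UMIs of genes a cell does not express. From 8 proximal tubule genes, free RNA was put at 14.8% to 28.4% of the members' UMIs, depending on the library. This pooled estimate counts every UMI of these genes as free RNA, so single cells rich in them raise it. Of the 2345 UMIs of Kap, 1 of the 8 genes, 497 lay in 1 cell of library 5. Over all members, 9 of 9 proximal tubule markers other than Lrp2 were detected. They are these same 8 genes and Gpx3, so they add little to the estimate. They summed to 7609 CPM, with a library range of 6551 to 14665, against 2278 in principal cells. Of 9 principal cell markers other than Aqp2 8 were detected, at 1140 CPM in sum (library range 265 to 2776) against 7255 in principal cells, and Aqp4, a water channel of principal cells, was at 0. Of 4 thick ascending limb markers 3 were detected, at 647 CPM in sum (library range 108 to 2250) against 136 in principal and 10643 in thick ascending limb cells. Of their 471 UMIs 415 were Umod, seen in 54 of the 107 cells, while Cldn16 was at 0 and Cldn19 at 1 UMI. Of 5 distal convoluted tubule markers 4 were detected, at 698 CPM (212 to 1794) against 1238 in principal and 6581 in distal convoluted tubule cells, with Pvalb at 0. Leukocyte markers summed to 720 CPM, but 1 cell of library 1 held 310 of the 356 Cd74 UMIs and 41 of the 48 C1qa UMIs. That cell had 2 UMIs of Atp6v1g3 and 0 of Foxi1, but also 3 of Atp6v1b1, 2 of Slc4a9, 4 of Aqp6 and 1 of Kit. Red cell markers other than Slc4a1 summed to 4 UMIs in all members, of which 1 lay in the cells with Slc4a1, a gene that red cells also use. No member shared its barcode with a cell of another library.

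By library, 19, 20, 57, 4 and 7 cells were members in libraries 1 to 5. As a share of barcodes past the quality limits this was 0.226%, 0.204%, 0.303%, 0.0498% and 0.0798%. Their exact 95% intervals, for counting error only, were 0.136 to 0.353%, 0.125 to 0.315%, 0.230 to 0.393%, 0.0136 to 0.128% and 0.0321 to 0.164%. Each share comes from 1 library, so no order of the libraries is read from them. They depend on the other cells each dissociation released and on the mitochondrial limit, above which library 5 held 10 further barcodes that met every gate with at least 10 Atp6v1g3 UMIs, against 3, 2, 3 and 0 in libraries 1 to 4. Median Atp6v1g3 was 16, 8.5, 31, 53.5 and 53 UMIs per cell in that order, and 11, 8, 39, 3 and 6 cells had at least 10 UMIs. Foxi1, summed over the members of each library and scaled to their own UMIs, was at 282, 479, 320, 412 and 318 CPM. In libraries 4 and 5 such levels rest on 4 and 7 cells. Atp6v0d2, the kidney isoform of the d subunit of the pump, was at 571, 714, 603, 475 and 991 CPM.

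**Figure D2:**
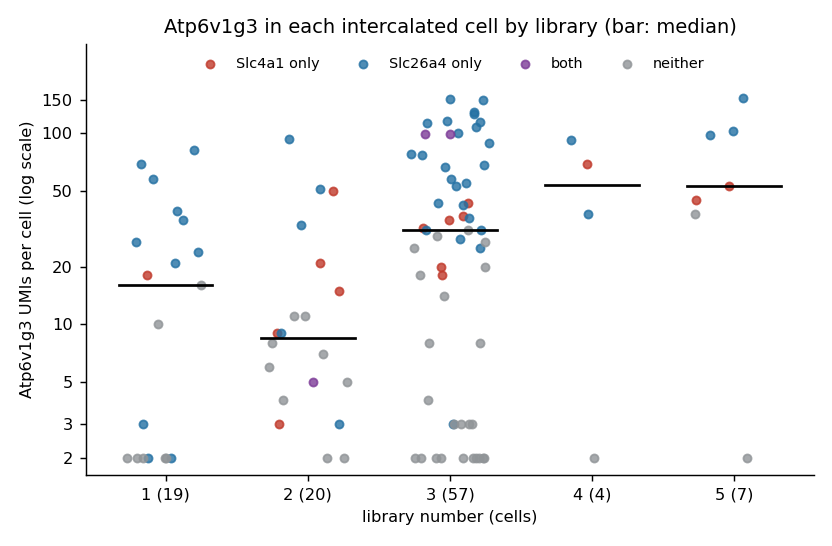
UMIs of Atp6v1g3 (log axis) in each intercalated cell of the 5 libraries, with the number of cells under each library, colour by exchanger gene and a bar at the median. Cells at 2 to 3 UMIs occur in every library, and medians run from 8.5 in library 2 to 53.5 in library 4.

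The exchanger genes divided the cells. Slc26a4 alone was seen in 46 cells (43.0%, interval 33.5 to 52.9%), Slc4a1 alone in 15 (14.0%, 8.06 to 22.1%), both in 3 and neither in 43. Cells with Slc4a1 alone numbered 1, 5, 6, 1 and 2 in libraries 1 to 5, and cells with Slc26a4 alone 11, 5, 25, 2 and 3. Slc4a1 ran from 1 over a median of 2 to 14 UMIs in its cells, and Slc26a4 from 1 over 9.5 to 33 in its own. The 3 cells with both held 2, 1 and 5 UMIs of Slc4a1 and 1, 9 and 19 of Slc26a4. Depth moved with the classes, with medians of 5254 UMIs for Slc4a1 alone, 8530.5 for Slc26a4 alone and 2130 for neither. With each cell thinned to 1000 UMIs, Slc4a1 alone was seen in 5.61%, Slc26a4 alone in 27.1%, both in 0% and neither in 67.3% of the 107 cells. Of the 43 cells with neither, 12 had at least 10 Atp6v1g3 UMIs and 12 had Foxi1, while the class held 15562 CPM of proximal tubule markers, against 5081 in Slc4a1-only and 4980 in Slc26a4-only cells.

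Genes were then compared between Slc4a1-only and Slc26a4-only cells as ratios of CPM, over 3711 genes with at least 20 UMIs in the 2 classes together. Slc4a1 and Slc26a4 themselves are left out because they made the classes. At least 2-fold higher in Slc4a1-only cells were 236 genes (6.36%), and at least 2-fold higher in Slc26a4-only cells 382 (10.3%). The median log2 ratio of all genes was -0.03. Of 6 proximal tubule markers compared, 4 were at least 2-fold higher in Slc4a1-only cells and 0 lower (log2 median 1.16), though the sums of all 9 were close. Of 6 principal cell markers 3 were higher and 1 lower (log2 median 0.86).

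Genes known from type A cells stood on the Slc4a1 side. The list held 5 genes beside Slc4a1, of which 3 had enough UMIs and all 3 were past 2-fold. Aqp6, a water and anion channel of intracellular vesicles, was at 902 CPM in Slc4a1-only and 33.8 in Slc26a4-only cells (log2 ratio 4.74, 95% interval 3.92 to 5.66). It had a UMI in 13 of 15 and 8 of 46 cells, and by library it was at 0, 165, 1179, 1087 and 2600 CPM in the former and at most 98.6 in the latter. The 0 was that of the single Slc4a1-only cell of library 1. Kit, a receptor tyrosine kinase, was at 301 against 31.4 CPM (log2 3.26, 2.28 to 4.32), and Adgrf5, an adhesion G-protein-coupled receptor, at 679 against 179 (log2 1.92, 1.43 to 2.41). Dmrt2, a transcription factor, had too few UMIs to be compared, at 97.0 and 7.25 CPM, and Slc26a7 was at 0 in all 107 cells.

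Among the 6 type B genes beside Slc26a4, 5 were compared and 3 were past 2-fold on the Slc26a4 side. Car15, a membrane-bound carbonic anhydrase, was at 2601 CPM in Slc26a4-only and 368 in Slc4a1-only cells (log2 -2.82, -3.33 to -2.35). Insrr, a receptor that senses alkaline pH, was at 215 against 67.9 (log2 -1.66, -3.02 to -0.56). Spink8, a protease inhibitor gene, was at 849 against 310 (log2 -1.45). Slc4a9 (AE4), a basolateral exchanger often listed for type B cells, was at 440 against 388 CPM, and the interval of its ratio held 0 (log2 -0.18, -0.71 to 0.32). Oxgr1, the receptor for alpha-ketoglutarate, was at 145 against 233 (log2 0.68, -0.07 to 1.39).

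Of 10 listed transcription factors compared, 1 was at least 2-fold higher in Slc4a1-only cells and 1 in Slc26a4-only cells. The latter was Hmx2, a homeobox gene. It had a UMI in 32 of 46 Slc26a4-only cells and in 1 of 15 Slc4a1-only cells, at 442 and 9.70 CPM (log2 -5.51, -10.82 to -3.02, from 183 UMIs and 1). In Slc26a4-only cells it was found in every library, at 582, 472, 286, 294 and 1151 CPM, and in Slc4a1-only cells only in library 2. Foxi1 was at 418 and 388 CPM in the 2 classes (log2 -0.11, -0.64 to 0.39), so that no difference was detectable at this depth. By library Foxi1 was at 291, 872, 412, 294 and 329 CPM in Slc26a4-only and at 761, 400, 147, 621 and 455 in Slc4a1-only cells, with neither class higher throughout. Jag1, a Notch ligand, was at 131 in Slc26a4-only and 48.5 in Slc4a1-only cells (log2 -1.43).

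The 12 genes with the largest ratio on the Slc26a4 side, by a fixed rule, were Igfbp5, Hmx2, Rcan1, S100a6, Car15, Tuba1a, Spp1, Umod, Hbegf, Ly6a, Kng2 and Taldo1. Igfbp5, a binding protein of insulin-like growth factors, had 264 UMIs in 26 of 46 cells and 1 UMI in the Slc4a1-only cells (log2 -6.04, -11.35 to -3.55). Rcan1, an inhibitor of calcineurin, had 118 UMIs against 0, and was at least 9.81-fold higher (from a floor of 3 UMIs over the class). Spp1 (osteopontin) was at 38436 against 8805 CPM (log2 -2.13, -2.22 to -2.03), and was higher on the Slc26a4 side in each of the 5 libraries, for example 61407 against 17900 in library 3 and 5282 against 1903 in library 1. In libraries 1, 4 and 5 the Slc4a1-only side was 1, 1 and 2 cells, and the 1903 CPM is 10 UMIs of 1 cell. Umod, made by thick ascending limb cells, was at 803 against 184 CPM (log2 -2.12), and barcodes with 1 to 100 UMIs, taken as free RNA, held 57.4 to 293 CPM of it. Of the 402 S100a6 UMIs on the Slc26a4 side 86.1% lay in 1 cell, and without it the log2 ratio was -0.14.

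On the Slc4a1 side the 12 leading genes were Aqp6, Slc8a1, Calb1, Mme, Adgrf5, Wnk1, Chpt1, S100g, Rhbg, Tns1, Kap and Defb1. Several of these rested on 1 cell of library 2, with 30114 UMIs, 50 of Atp6v1g3 and 2 of Slc4a1. It held 94 of the 99 Calb1 UMIs, 110 of the 119 Slc8a1 UMIs, 778 of the 912 S100g UMIs and 65 of the 93 Wnk1 UMIs, which are calcium-handling genes and a kinase of the distal convoluted and connecting tubule. Without the cell with most UMIs of each gene the log2 ratio was -0.79 for Calb1, -0.06 for Slc8a1, -0.76 for S100g and 0.50 for Wnk1, and in library 3 alone it was below 0 for Calb1, Slc8a1, S100g, Tns1 and Kap. The ratio held up for Mme, the peptidase neprilysin, at 650 against 82.2 CPM (log2 2.98, 2.37 to 3.62, and 3.14 without its top cell). It also held for Rhbg, an ammonia transporter of the basolateral membrane, at 795 against 297 (log2 1.42, and 1.60 without its top cell), and for Defb1, an antimicrobial beta-defensin, at 3539 against 1581 (log2 1.16, and 1.10). Proximal tubule and principal cell markers had log2 medians of 1.16 and 0.86 on the same side. The part of such RNA in these ratios was not tested.

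**Figure D3:**
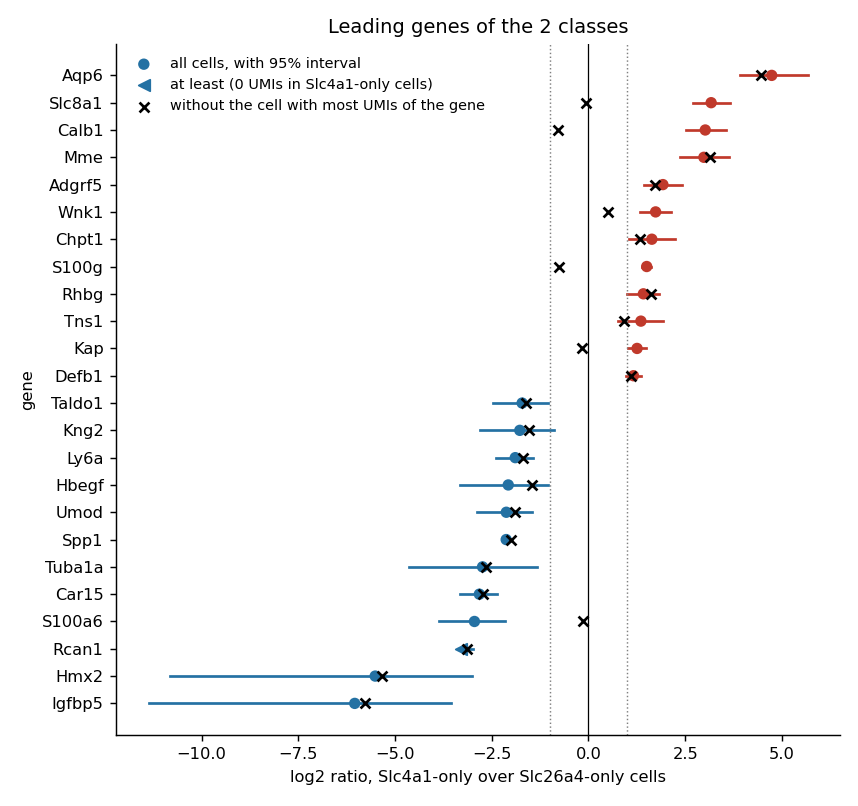
Log2 ratio of CPM, Slc4a1-only over Slc26a4-only cells, for the 12 leading genes of each direction, with the 95% counting interval, a triangle for a bound and a cross for the ratio without the cell that holds most UMIs of the gene; dotted lines mark 2-fold. Crosses fall near 0 or on the other side for Slc8a1, Calb1, S100g, Kap and S100a6 and stay near the point for Aqp6, Mme, Hmx2 and Car15.

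Proton pump subunits were compared with principal cells, over 7789 genes with at least 20 UMIs in both classes together. Of all these genes 629 (8.08%) were at least 2-fold higher in intercalated cells and 665 (8.54%) at least 2-fold higher in principal cells, and the median over them was -0.06 on the log2 scale. Of 24 subunit and accessory genes of the V-ATPase other than Atp6v1g3, 21 were compared, 11 were at least 2-fold higher and 1 was at least 2-fold lower. Their median on the log2 scale was 1.27. In the cells with at least 10 Atp6v1g3 UMIs the median was 1.39, and in library 3, the only library with at least 20 cells of each class, it was 1.29.

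Isoforms known from intercalated cells were among the 11. Atp6v1c2, an isoform of the C subunit, had 323 UMIs in 67 of 107 intercalated cells and 0 in 111 principal cells, and was at least 136-fold higher. Atp6v0d2 was at 640 CPM against 4.35 (147-fold, log2 7.20, 5.83 to 9.08), Atp6v1b1 at 370 against 90.3 (4.09-fold) and Atp6v0a4, the kidney isoform of the a subunit, at 603 against 132 (4.58-fold). Atp6v1c2 was at 1.30, 2.10 and 0.15 CPM in thick ascending limb, distal convoluted tubule and proximal tubule cells, and Atp6v1b1 at 38.1, 57.0 and 0.43. Atp6v0a4 was nearer to those classes, at 128, 223 and 128 CPM.

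Subunits that all cells use were also higher past 2-fold, among them Atp6v1a at 1241 against 337 CPM (3.68-fold), Atp6v0c, which forms the proton-carrying ring, at 2414 against 555 (4.35-fold), and Atp6v1e1 at 1143 against 348 (3.28-fold). Others were not past 2-fold. Atp6v1c1, the other C isoform, was at 48.1 against 65.3 CPM (log2 -0.44, -1.09 to 0.18), and Atp6v1g1, the other G isoform, at 400 against 297 (log2 0.43, 0.19 to 0.67). Atp6v0d1, the other d isoform, was lower in intercalated cells and just short of 2-fold, at 72.8 against 145 (log2 -0.99, -1.48 to -0.52, and -1.10 in library 3). Tcirg1, the a subunit of osteoclasts, was at 0 in intercalated cells and 22.9 CPM in principal cells. Between Slc4a1-only and Slc26a4-only cells none of the 18 V-ATPase genes compared was past 2-fold in either direction, with medians of 0.09 for the V1 domain and -0.20 for the V0 domain and accessory genes. The largest of these ratios was that of Atp6ap2, the prorenin receptor, at 503 CPM in Slc26a4-only and 262 in Slc4a1-only cells (log2 -0.94).

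**Figure D4:**
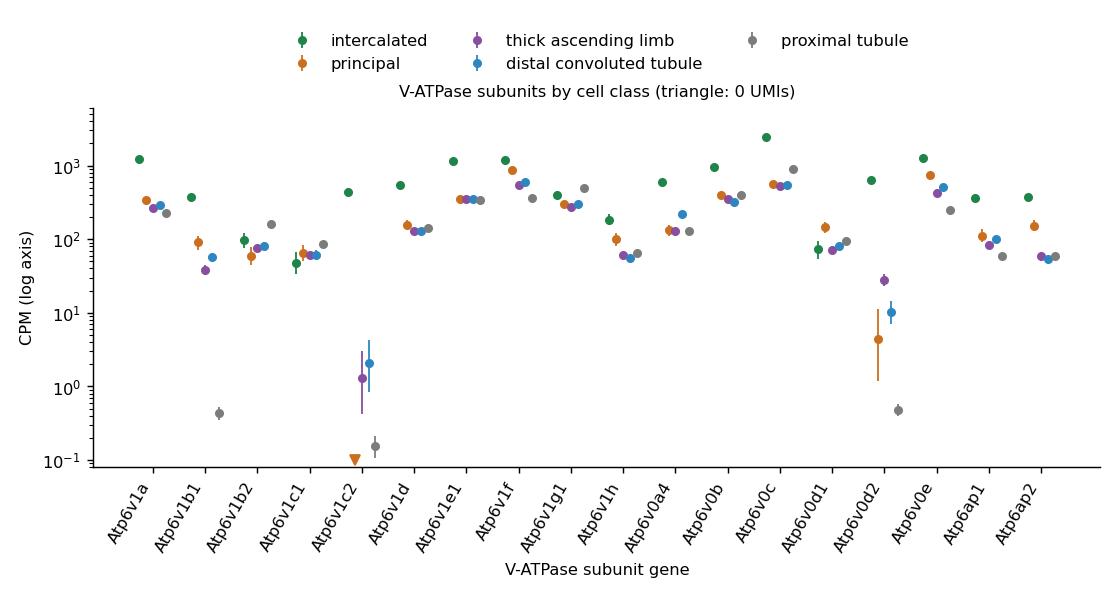
CPM (log axis) of 18 V-ATPase genes in intercalated, principal, thick ascending limb, distal convoluted tubule and proximal tubule cells, summed over all cells of a class, with 95% Poisson intervals and a triangle for 0 UMIs. Intercalated cells stand above the other classes for Atp6v1b1, Atp6v1c2, Atp6v0a4 and Atp6v0d2 and within their range for Atp6v1b2, Atp6v0d1 and Atp6v1g1.

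Of 17 bicarbonate and chloride transporters beside the genes of the rule, 12 were compared with principal cells, 5 were at least 2-fold higher and 1 lower, with a log2 median of 0.37. Slc4a9 was at 350 CPM against 6.53 (53.7-fold). Bsnd (barttin), an accessory protein of chloride channels, was at 107 against 17.4 (log2 2.62). Clcn5, an endosomal chloride-proton exchanger, was at 333 against 32.6 (log2 3.35, and 3.28 in library 3). Slc12a2, the basolateral sodium-potassium-chloride cotransporter, was at 9.62 against 34.8 (log2 -1.86).

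Carbonic anhydrase and ammonia genes were 11, of which 9 were compared and 5 were higher past 2-fold, with a log2 median of 1.37. Car2, the cytosolic enzyme that supplies protons and bicarbonate, was at 1811 CPM against 653 (log2 1.47, and 1423 to 3219 over the libraries against 229 to 829). Car12, a membrane-bound form, was at 510 against 49.0 (log2 3.38). Rhbg was at 326 against 126 (log2 1.37), whereas Rhcg, the apical ammonia transporter, was at 268 against 312 (log2 -0.22). Car15 was also near principal cells (log2 0.21), at 1705 against 1471 CPM. Car2 did not separate the exchanger classes, at 2279 in Slc4a1-only and 2193 in Slc26a4-only cells.

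Potassium and sodium handling genes gave 1 higher and 1 lower of 8 compared, with a log2 median of -0.25. Fxyd2, a regulator of the sodium pump, was at 6983 CPM against 1029 (log2 2.76). It is a gene of most tubule cells, at 5998 in proximal tubule cells and 4331 to 7157 in free RNA. The sodium pump subunit Atp1b1 was within 2-fold of principal cells, at 2345 against 3049. Kcnma1, the large-conductance potassium channel of intercalated cells, and Atp12a, a colonic-type proton-potassium pump, were at 0 in all members, and Atp4a, the gastric-type pump, was at 31.6 against 58.8.

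Of 16 sensors and receptors, 11 were compared, 6 were higher and 2 lower past 2-fold. Beside Adgrf5 (291 CPM against 4.35), Oxgr1 (137 against 4.35), Insrr and Kit, these were Avpr1a, the V1a vasopressin receptor, with 68 UMIs against 0 in principal cells, and P2ry14, a receptor for UDP-sugars, with 27 against 0. P2ry14 lay in 14 cells, 4 of them Slc4a1-only and 3 Slc26a4-only. Ptger1, a prostaglandin E2 receptor, had 0 UMIs in intercalated cells and 52.2 CPM in principal cells.

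Among 16 transcription factor genes 15 were compared, with 4 higher and 4 lower. Foxi1 was at 344 CPM against 8.71 (39.5-fold, log2 5.30, 4.30 to 6.53) and Hmx2 at 268 against 2.18 (log2 6.94, 5.07 to 10.00). Foxp1 was at 191 against 27.2 (log2 2.81). Tfcp2l1, a factor that both collecting duct types use, was at 948 against 567 (log2 0.74). On the principal side stood Gata2 (39.8 against 203, log2 -2.35), Gata3 (114 against 282, log2 -1.31), Ehf (75.6 against 229, log2 -1.60) and Elf5, with 0 UMIs against 42.4 CPM. Of 14 Notch genes 7 were compared, and 1 was higher and 2 lower. Notch signalling divides principal from intercalated cells in development. Jag1 was at 89.3 CPM against 14.1 (log2 2.66), while Hes1, a Notch target, was at 121 against 149 (log2 -0.30).

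Of 16 tubule injury genes 13 were compared, with 1 higher and 5 lower, and a log2 median of -0.90. Spp1 was the higher one, at 31633 CPM against 14648 (2.16-fold). Its level changed greatly by library in all tubule cells, at 4861, 8572, 52907, 35691 and 2919 CPM in intercalated cells of libraries 1 to 5 and at 2343, 5164, 20011, 9736 and 1005 in principal cells, and thus was higher in intercalated than in principal cells in each library. Thick ascending limb cells were above intercalated cells in each library, at 20777, 34940, 70170, 44328 and 3176 CPM, and distal convoluted tubule cells in libraries 1 and 2 only, at 10284, 15586, 48329, 30148 and 1190. Barcodes with 1 to 100 UMIs held 929 to 11346 CPM of Spp1, also with library 3 on top. Lcn2 (lipocalin 2, NGAL), which binds bacterial siderophores and marks tubule injury, stood the other way, at 240 against 3446 CPM (log2 -3.84, and -3.87 in library 3). It was at 0 to 341 CPM over the libraries in intercalated and 88.0 to 4458 in principal cells, and at 1889 in thick ascending limb and 1680 in distal convoluted tubule cells. Of the 175 Lcn2 UMIs of intercalated cells 45.1% lay in 1 cell. Clu (clusterin) was at 5122 against 16538 (log2 -1.69), Krt18 at 393 against 1201 (log2 -1.61) and Anxa1 at 15.1 against 66.4. Havcr1 (KIM-1) had 2 UMIs in all members.

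Between the exchanger classes 9 injury genes were compared, 6 of them at least 2-fold higher in Slc26a4-only cells and 0 in Slc4a1-only cells, with a log2 median of -1.28. These were Spp1, Cdkn1a (164 against 38.8 CPM), a cell cycle inhibitor, Anxa2 (106 against 9.70), Krt8 (554 against 223), Krt18 (435 against 184) and Lcn2 (94.3 against 38.8, from 39 and 4 UMIs). In library 3 alone the log2 ratio was -1.78 for Spp1, -1.50 for Krt8, -2.73 for Krt18, -0.35 for Cdkn1a, -0.20 for Anxa2 and 0.85 for Lcn2. So the direction was the same there for all but Lcn2, and Cdkn1a and Anxa2 were no longer past 2-fold. As a mean over cells, which gives each cell the same weight, the ratio was -0.27 for Krt8 and -0.36 for Lcn2. Krt8 was also short of 2-fold with at most 10% mitochondrial UMIs (-0.41) and with each cell thinned to 1000 UMIs (-0.58), and so was Krt18 (-0.79 and -0.89). Thick ascending limb markers were also higher in Slc26a4-only cells, at 873 CPM (library range 126 to 3646, 3 of 4 detected). In Slc4a1-only cells they were at 301 (0 to 544, 2 of 4 detected). Distal convoluted tubule markers were at 503 in Slc26a4-only and 1881 in Slc4a1-only cells. Of the 194 UMIs behind the latter, 94 of Calb1 and 65 of Wnk1 lay in 1 cell. Of 6 proximal tubule markers compared 4 were at least 2-fold higher in Slc4a1-only cells, and of 6 principal cell markers 3 were, with 1 lower. Thick ascending limb cells themselves held 48226 CPM of Spp1, 1889 of Lcn2, 906 of Krt8, 507 of Anxa2, 222 of Krt18 and 152 of Cdkn1a. The part of such RNA in these ratios was not tested.

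Defence genes gave 5 higher and 3 lower of 11 compared with principal cells. Defb1 was at 1990 CPM against 2207 (log2 -0.15). Pigr, the receptor that carries polymeric antibodies across epithelia, was at 218 against 29.4, with 39.6% of its UMIs in 1 cell. Ccl2, a chemokine that attracts monocytes, had 46 UMIs in 10 intercalated cells and 0 in principal cells, and 43 of the 46 were in library 1, where intercalated cells had 311 CPM and barcodes with 1 to 100 UMIs 13.7. In library 4 such barcodes held 292 CPM and the intercalated cells 0. These 43 UMIs lay in 7 cells with 2 to 3 Atp6v1g3 UMIs and 0 of Foxi1. Among the 7 was the cell with most Cd74, and without it 37 UMIs lay in 6 cells. The 27 Ccl2 UMIs of Slc26a4-only cells were 26 in 3 of these 7 cells and 1 elsewhere, and in cells with at least 4 Atp6v1g3 UMIs there were 3 Ccl2 UMIs in all. Tlr4 had 1 UMI in all members.

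Immediate early genes were near those of principal cells, with 1 of 14 past 2-fold and a log2 median of 0.07. The 1 was Atf3, a stress-induced transcription factor, at 1463 CPM against 412 (log2 1.83). It was higher in intercalated cells in each library, at 1712, 1096, 1561, 2155 and 619 against 99.7, 291, 492, 523 and 201, and it was at 1333 CPM in thick ascending limb cells. Fos (2116 against 2210) and Jun (1694 against 1523) were close. Of 10 heat shock genes 2 were higher and 1 lower, with Dnajb1 at 245 against 110 and Hspb1 at 146 against 58.8, the latter with 44.3% of its UMIs in 1 cell and a log2 ratio of 0.50 in cells with at least 10 Atp6v1g3 UMIs. Of 16 glycolysis and energy genes 2 were higher and 1 lower. Ckmt1, the mitochondrial creatine kinase, was at 456 against 134 (log2 1.77, and 1.45 in library 3) and at 114 and 88.5 in thick ascending limb and distal convoluted tubule cells. Gapdh was at 1807 against 1718.

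Among the 20 genes with the largest ratio over principal cells, by a fixed rule that left out the genes used for choosing, were Hepacam2, Atp6v0d2, Atp6v1c2, Hmx2, Adgrf5, Slc4a9, Aqp6, Insrr, Pam, Emb, Foxi1, Aldh1l1, Eps8, Oxgr1, Mme, Cd74, Rcan2, Igfbp5 and Guca2a. Hepacam2, an immunoglobulin-family adhesion protein, had 216 UMIs in 59 of 107 cells and 1 UMI in the principal cells (log2 8.09, 5.60 to 13.40). Pam, the enzyme that amidates peptide hormones, was at 731 CPM against 16.3 (44.8-fold), in 77 cells. Emb (embigin), a partner of monocarboxylate transporters, was at 387 against 8.71 (44.5-fold) and at 544 in Slc26a4-only but 213 in Slc4a1-only cells (log2 -1.35). Aldh1l1, a folate enzyme, was at 584 against 15.2 (38.3-fold), and Eps8, an actin-regulating protein, at 345 against 9.79 (35.2-fold). Guca2a (guanylin), a peptide that acts on epithelial salt transport, had 194 UMIs against 11 (22.3-fold). Hepacam2, Pam, Emb, Aldh1l1, Eps8 and Guca2a were each found in at least 40 of the 107 cells.

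Of the genes named, Cd74 alone depended on a single cell, the one described above with leukocyte genes. Without it the log2 ratio of Cd74 went from 4.81 to 1.87, and in library 3 it was 0.47. For the others the log2 ratio in library 3 was at least 3.81. Leukocyte markers as a whole were 720 CPM in intercalated and 63.1 in principal cells, and their part in other ratios was not tested.

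**Figure D5:**
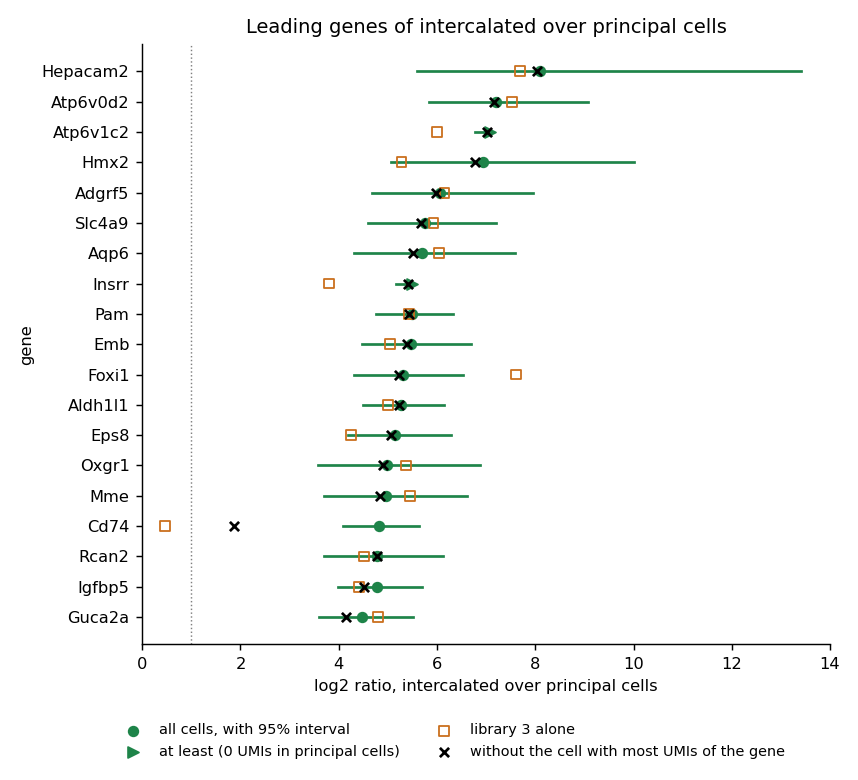
Log2 ratio of CPM, intercalated over principal cells, for 19 of the 20 leading genes, with the 95% counting interval, a triangle for a bound, a square for library 3 alone and a cross without the cell that holds most UMIs of the gene; a class at 0 is set to the floor of 3 UMIs, and the dotted line marks 2-fold. For Cd74 alone the square and the cross lie far to the left of the point.

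The gates left out more Atp6v1g3-rich barcodes than they kept. Of 255 barcodes past the quality limits with at least 2 Atp6v1g3 UMIs, 148 failed another gate, and of 177 with at least 10, 110 did. Among those 110, 72 failed on Aqp2, 47 on Lrp2, 42 on Ptprc and 1 on Slc12a1, with 42 failing more than 1 gate. They were deeper than the members with at least 10, with a median of 15595 against 8055 UMIs, and Foxi1 was seen in 82. The 35 that failed on Aqp2 alone held 5130 CPM of principal cell markers other than Aqp2, against 901 in the members with at least 10, and 32 of them had Fxyd4, a principal cell gene. The 21 that failed on Lrp2 alone held 26620 CPM of proximal tubule markers, against 4990. The 12 that failed on Ptprc alone had 406 CPM of leukocyte markers, against 58.3. Doublets within the members were not removed further.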

How the data were processed

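Single-cell RNA of dissociated mouse kidney was measured with the 10x Genomics 3' v3.1 kit. The authors deposited raw UMI counts per gene and barcode, merged over 5 libraries before cells were called, and per the submitters' processing notes and the methods they used Cell Ranger 6.0 with the mm10 genome. The methods count more matrices than the 5 libraries seen in the barcodes. The label "Goblet cell" given for the samples was not used. Here barcodes were chosen by the counts stated above. The members and gene lists were chosen with earlier results of these data known. UMIs were summed over the cells of a class and scaled to 1000000 UMIs of the class (CPM), with no correction for gene length, so that only levels of the same gene are compared. Ratios have exact conditional binomial 95% intervals, levels Poisson intervals and shares Clopper-Pearson intervals. A gene was compared with at least 20 UMIs in the 2 classes together, was called past 2-fold, and with 0 UMIs in a class was set against 3 UMIs over that class. Leading genes needed at least 100 UMIs and the same direction in each library with at least 20 cells of each class, without Gm, Rik and mt- names. Only library 3 met this for principal cells and 0 libraries for the exchanger classes. Other genes named are members of the gene lists, picked after their values were seen. Some genes of the lists and 1 of the 20 leading genes are not reported here. The libraries held 82426945 to 139382799 UMIs over all barcodes. Python 3.11.15, NumPy 2.4.6, SciPy 1.17.1 and pandas 2.3.3 were used. Alternatives covered depth, mitochondrial share, gates, thinning, free RNA, gene minimum, averaging, libraries and stratification by library.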

Additional observations from a re-analysis of the deposited data

Results flagged for a closer look

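A signal of Atp6v1g3 lay in barcodes outside the classes whose genes were compared, some of which were described with the gates above. There were 110 barcodes with at least 10 Atp6v1g3 UMIs outside the gates on Aqp2, Slc12a1, Lrp2 and Ptprc. Foxi1 was seen in 82 of them (74.5%), Slc26a4 in 68 and Slc4a1 in 33. By comparison, Foxi1 was seen in 4.50% of principal and 0.086% of proximal tubule cells. Those cells were chosen with little or no Atp6v1g3, and had medians of 6758 and 6461 UMIs against 15595 in the 110. By library the 110 numbered 19, 15, 53, 7 and 16. Another 18 barcodes met every gate and held at least 10 Atp6v1g3 UMIs but lay above the mitochondrial limit. Foxi1 was seen in 13, Slc26a4 in 12 and Slc4a1 in 3 of these 18, at a median of 4918.5 UMIs, and 10 of the 18 were in library 5, which had 7 members.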

How the results depend on the processing

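The number of intercalated cells, 107 as reported, was 52 with at most 10% mitochondrial UMIs and 325 with a minimum of 1 Atp6v1g3 UMI. It was 67 with a minimum of 10, an alternative chosen after seeing the data, and 50 to 103 with 1 library left out, lowest without library 3. The share with Slc4a1 alone (14.0%) was 5.23% with a minimum of 1 Atp6v1g3 UMI, 7.48% with at least 2 UMIs of the exchanger, 5.61% after thinning and 11.5 to 18.0% with 1 library left out. The share with Slc26a4 alone (43.0%) was 30.9% with a minimum of 500 UMIs, 32.7% with the 10% mitochondrial limit, 15.7% with a minimum of 1 Atp6v1g3 UMI, 27.1% after thinning, 59.7% with a minimum of 10 and 39.8 to 47.1% with 1 library left out. Genes at least 2-fold higher in Slc4a1-only cells (236) were 93 with the 10% limit, 25 after thinning, 17 with at least 100 UMIs, 1093 with no minimum, 150 in library 3 alone (chosen after seeing the data) and 109 to 221 with 1 library left out, lowest without library 3. On the Slc26a4 side (382) they were 170, 53, 47 and 793 in the first 4 of these settings and 255 to 456 with 1 library left out. Genes at least 2-fold higher than in principal cells (629) were 1076 with a minimum of 1 Atp6v1g3 UMI, 176 after thinning, 169 with at least 100 UMIs, 1357 with no minimum and 441 to 631 with 1 library left out. Fewer UMIs or fewer genes compared lower such counts by construction. The V-ATPase median (1.27) lay between 0.73 with a minimum of 1 Atp6v1g3 UMI and 1.71 with at least 100 UMIs, and between 1.18 and 1.29 with 1 library left out.

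Of 94 named ratios past 2-fold, 87 kept their sign in each of the 21 settings that gave a value, and 7 between the exchanger classes did not. The settings with at least 100 UMIs and with no minimum change only which genes are compared, so they could not change a sign. Calb1 was at -0.39 with the gates at 0, -0.89 without cells of over 3 times the median UMIs, -1.26 without library 2 and -0.093 in library 3, and up to 3.64 with another library left out. S100g was at -0.63, -0.90, -1.79 and -1.41 in the same settings, and up to 2.91. Slc8a1 was at -1.45 without library 2, up to 3.72 with another library left out, and -0.30 in library 3, and Tns1 at -0.47 in library 3, and 0.70 to 2.08 with 1 library left out. Lcn2 was at 0.85 in library 3 and at -1.46 to -0.52 with 1 library left out. Kap was at -0.78 with the 10% mitochondrial limit, -0.21 with at least 2 UMIs of the exchanger, -0.20 without library 2, -0.072 with a minimum of 10 Atp6v1g3 UMIs and -0.016 in library 3. S100a6 was at 0.88 without library 3 and down to -6.52 with another library left out. Both classes of each comparison come from the same 5 libraries, but not in the same shares. Library 3 gave 6 of the 15 Slc4a1-only and 25 of the 46 Slc26a4-only cells, and library 1 gave 1 and 11. Pooled ratios therefore also carry differences between libraries. With ratios stratified by library (Mantel-Haenszel weights, chosen after seeing the data) there were 314 genes at least 2-fold higher in Slc4a1-only cells, 391 in Slc26a4-only cells and 599 in intercalated over principal cells, and the V-ATPase median was 1.16. With 15 Slc4a1-only cells, ratios of genes with few UMIs are not resolved at this depth.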
